A study of Saccharomyces cerevisiae with 4 samples.

Results

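The core autophagy genes of budding yeast were followed here through their ribosome footprints, in meiotic cells that lacked *DBP1* and in wild-type cells. The rule listed 10 genes by systematic ORF name, *ATG1*, *ATG2*, *ATG3*, *ATG4*, *ATG5*, *ATG7*, *ATG8*, *ATG9*, *ATG10* and *ATG13*, and the rule itself uses no measured value. Of these, 9 were found among the 5371 ORFs of the footprint table, and *ATG10* (YLL042C) was not analysed here. The samples were 2 *dbp1Δ* and 2 wild-type libraries of ribosome footprints (mRNA fragments protected by ribosomes), all from diploid (*MATa/alpha*) yeast of the SK1 background, which sporulates efficiently. Cells were harvested after 6 h in rich sporulation (SPO) medium, following brief exposure to cycloheximide. The medium was potassium acetate with added adenine, uracil, histidine, leucine and tryptophan. In the *dbp1Δ* cells the ORF of the RNA helicase Dbp1 was absent from both homologues. The deletion had been made in a wild-type haploid with Cas9, without insertion of a marker, and the flanking sequence was kept. The strain list gives the *dbp1Δ* diploid as homozygous for *ho::LYS2*, *lys2*, *ura3*, *his3::hisG*, *trp1::hisG* and *LEU2*, and the wild-type diploids on it share these alleles except that one carries *leu2::hisG* and another carries tagged *DED1-3V5*, an allele of the *DBP1* paralog *DED1*. Which wild-type diploid was used is not stated. The number of clones behind the strain is not stated. The study describes all of its replicates as biological, whereas the labels only number the libraries of a genotype 1 and 2, and p-values measure the spread between these libraries. No batch is named.

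Autophagy encloses portions of cytoplasm in a double membrane, the autophagosome, and delivers them to the vacuole for degradation. The Atg1 kinase and its regulator Atg13 start the process when nutrients are scarce, Atg9 vesicles and the lipid-transfer protein Atg2 supply membrane, and the ubiquitin-like protein Atg8 is attached to the lipid phosphatidylethanolamine on the growing membrane. Yeast sporulates when starved of nitrogen, and strains that cannot carry out autophagy fail to sporulate.

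Values are footprint RPKM, that is, reads scaled to the length of the ORF and to the mapped reads of the library. Levels may thus be set against each other between genes, but such comparisons depend on the length used. The length that matched the values was the ORF length less 60 nt. This raises short ORFs, such as *ATG8* at 354 nt, more than long ones. The steps of the RPKM values gave implied totals of 5789194 and 4971129 mapped reads for *dbp1Δ* replicates 1 and 2, and 5294778 and 4619171 for wild-type replicates 1 and 2. All values of the 9 autophagy ORFs came out as whole reads, between 82 and 8702 a library. Intervals below are exact 95% Clopper-Pearson intervals from these reads. They cover counting error only, and they are too narrow where amplified reads descend from the same molecule. *DBP1* (YPL119C) had 6 and 4 reads in the *dbp1Δ* libraries, against 1560 and 1216 in wild type, as the labels require. The early meiotic genes used as markers (10 genes) had mean levels of at least 78.9 RPKM and the middle ones (10 genes) of at least 534 RPKM, where the median ORF had 33.0. One library stood apart: *dbp1Δ* replicate 1 differed 2-fold or more, on the log2(RPKM + 0.5) scale, from *dbp1Δ* replicate 2 at 222 of 5338 ORFs, and from the wild-type libraries at 159 and 146. Every other pair of libraries differed in this way at 41 to 79 ORFs.

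The 9 ORFs spanned more than 2 orders of magnitude. From the highest mean level to the lowest the order was *ATG8*, *ATG3*, *ATG4*, *ATG1*, *ATG2*, *ATG7*, *ATG13*, *ATG9* and *ATG5*, with means over the 4 libraries of 3878 RPKM for *ATG8* and 23.9 RPKM for *ATG5*. *ATG8* ranked between 23 and 38 among all ORFs of a library, whereas *ATG13*, *ATG9* and *ATG5* lay near or below the median ORF. All neighbours in this order were separated in every library except *ATG2* and *ATG7*, which kept their order in 3 of 4 libraries, and *ATG9* and *ATG5*, which kept it in 2 of 4. The 9 ORFs together took 0.381% and 0.388% of the mapped reads in *dbp1Δ* cells, against 0.377% and 0.375% in wild-type cells.

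**Figure D1:**
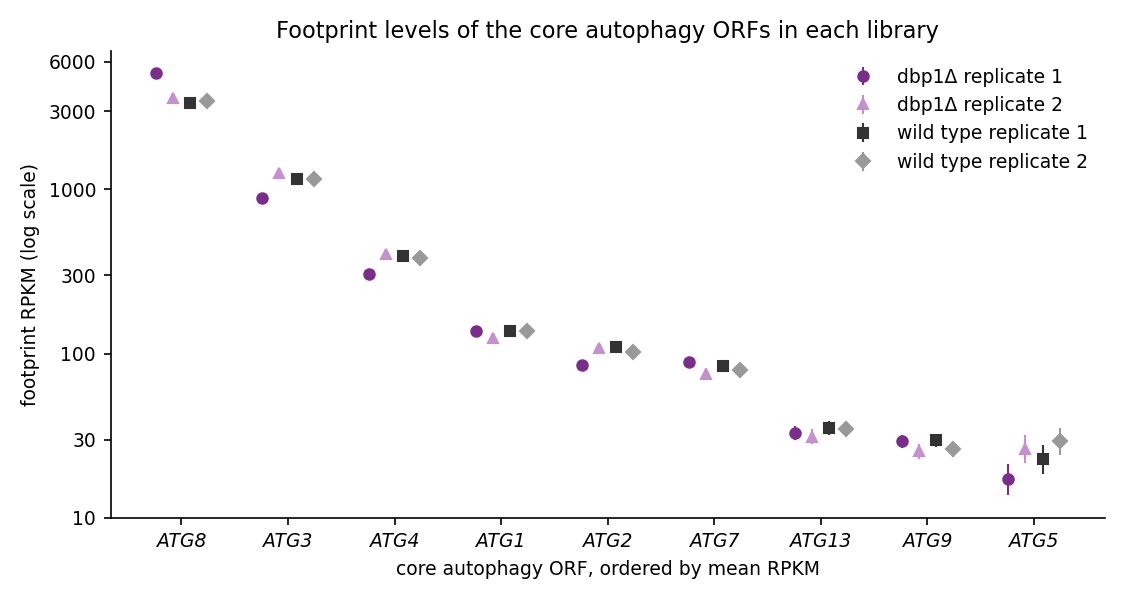
Footprint RPKM (vertical axis, log scale) of each core autophagy ORF in the 4 libraries, ordered by mean level. Points are single libraries and bars are exact 95% counting intervals; *ATG8* lies at 3348 RPKM or more in every library and *ATG5* at 29.4 or less, and the points of *dbp1Δ* replicate 1 are the highest for *ATG8* and the lowest for *ATG3*, *ATG4*, *ATG2* and *ATG5*.

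To ask whether loss of *DBP1* altered the footprint levels of these genes, each ORF was compared between genotypes with limma on log2(RPKM + 0.5). Benjamini-Hochberg adjustment was made over all 5338 ORFs that averaged at least 1 RPKM. None of the 9 autophagy ORFs passed an adjusted p of 0.05 in limma, and 0 had an unadjusted p under 0.05, both in this fit and in limma voom on the recovered reads. Over all tested ORFs 0.0375% were called, namely *DBP1*, lower in *dbp1Δ*, and YPL119C-A, the ORF beside it, higher in *dbp1Δ*. YPL119C-A had a mean of 31.3 RPKM in *dbp1Δ* against 1.55 in wild type (log2 fold change 4.02). YPL119C-A did not pass in limma voom (adjusted p = 0.198). For its marker-less deletion of *DBP1*, the study describes translation of an ORF that was untranslated before. That ORF lies in the untranslated region downstream of the deleted one, and the text of the study does not name it. The log2 fold changes of the autophagy ORFs lay between -0.27 and 0.33, with 7 negative and 2 positive and a median of -0.13. The median over all tested ORFs was -0.03, with 3044 negative and 2294 positive. With 2 libraries a genotype, an exact two-sided permutation test of a single ORF cannot go below 0.333, so none was made. A p above the threshold does not show that the genotypes are alike: the 95% intervals of the fold changes, given with each gene below, reach 0.81 on the log2 scale for *ATG8* and -0.86 for *ATG5*. These are bulk cultures, in which fewer cells translating a gene and less translation per cell cannot be told apart. No mRNA values were used here, so a change in mRNA amount cannot be told apart from a change in its translation.

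Initiation of autophagy depends on the kinase Atg1 and on Atg13, the subunit through which the nutrient-sensing kinase complex TORC1 holds Atg1 in check. *ATG1* (YGL180W) was at 137 and 125 RPKM in *dbp1Δ* replicates 1 and 2, against 137 and 137 RPKM in wild-type replicates 1 and 2. *ATG13* (YPR185W) was at 32.9 and 31.2 RPKM in *dbp1Δ*, against 35.3 and 35.0 RPKM in wild type. The *ATG1* values overlapped between genotypes, while the *ATG13* values did not, with *dbp1Δ* lower by less than the width of their counting intervals (29.8 to 36.3 and 28.0 to 34.8 RPKM in *dbp1Δ*, 31.9 to 38.9 and 31.4 to 38.9 RPKM in wild type). The log2 fold change was -0.06 for *ATG1* (95% interval -0.41 to 0.29) and -0.13 for *ATG13* (-0.53 to 0.27). The footprint level of *ATG1* was 4.16 and 4.01 times that of *ATG13* in *dbp1Δ* cells, against 3.89 and 3.90 times in wild-type cells. The counting intervals of these 4 ratios overlapped.

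The membrane of the autophagosome is supplied through Atg9, a membrane protein carried on small vesicles that moves lipids between the leaflets of the bilayer, and Atg2, which transfers lipids to the growing membrane. *ATG2* (YNL242W), the longest of the 9 ORFs at 4779 nt, was at 84.8 and 109 RPKM in *dbp1Δ*, against 110 and 102 RPKM in wild type. *ATG9* (YDL149W) was at 29.3 and 25.4 RPKM in *dbp1Δ*, against 29.7 and 26.1 RPKM in wild type. For both genes the genotypes overlapped, and for *ATG2* *dbp1Δ* replicate 1 alone was low, with an interval of 81.4 to 88.3 RPKM that lay below those of the other 3 libraries (the lowest began at 97.9 RPKM). The log2 fold change was -0.14 for *ATG2* (95% interval -0.55 to 0.27) and -0.03 for *ATG9* (-0.48 to 0.41). The level of *ATG2* was 2.90 and 4.29 times that of *ATG9* in *dbp1Δ*, against 3.68 and 3.91 times in wild type.

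Atg8 is the ubiquitin-like protein that coats the autophagosome membrane, and its ORF had the highest footprint level of the 9. *ATG8* (YBL078C) was at 5113 RPKM in *dbp1Δ* replicate 1 (8702 reads, interval 5006 to 5221 RPKM) and at 3589 RPKM in *dbp1Δ* replicate 2 (5245 reads, 3492 to 3687), against 3348 RPKM in wild-type replicate 1 (5211 reads, 3257 to 3440) and 3464 RPKM in wild-type replicate 2 (4704 reads, 3366 to 3564). Both *dbp1Δ* values thus lay above both wild-type values, but *dbp1Δ* replicate 2 was closer to wild type than to the other *dbp1Δ* library, and its interval overlapped that of wild-type replicate 2. The mean was 4351 ± 1078 RPKM in *dbp1Δ* cells and 3406 ± 82.2 RPKM in wild-type cells (SD, n = 2 libraries each), a ratio of 1.28. The log2 fold change was 0.33 (standard error 0.21, 95% interval -0.15 to 0.81, adjusted p = 1.0 in limma). Without *dbp1Δ* replicate 1 it was 0.08, and without *dbp1Δ* replicate 2 it was 0.59.

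Before it can be attached to lipid, Atg8 is trimmed at its carboxy terminus by the cysteine protease Atg4, which later also releases it from the membrane. It then passes through Atg7, an enzyme of the E1 type shared with the ubiquitin-like protein Atg12, and Atg3, the E2-type enzyme that transfers it to phosphatidylethanolamine. *ATG3* (YNR007C) was at 888 and 1266 RPKM in *dbp1Δ* replicates 1 and 2, against 1163 and 1166 RPKM in wild type. *ATG4* (YNL223W) was at 304 and 402 RPKM in *dbp1Δ*, against 391 and 384 RPKM in wild type. In each case the wild-type libraries lay between the 2 *dbp1Δ* libraries, with *dbp1Δ* replicate 1 lowest and replicate 2 highest. *ATG7* (YHR171W) was at 88.9 and 75.5 RPKM in *dbp1Δ*, against 84.3 and 79.4 RPKM in wild type, with *dbp1Δ* replicate 1 highest and replicate 2 lowest. The log2 fold changes were -0.14 for *ATG3* (95% interval -0.59 to 0.32), -0.15 for *ATG4* (-0.56 to 0.26) and 0.00 for *ATG7* (-0.38 to 0.39).

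Atg5 receives Atg12 from the E2-type enzyme Atg10, and the conjugate assists the lipidation of Atg8 together with Atg16. *ATG5* (YPL149W) had the fewest reads of the 9 ORFs, 82 and 108 in *dbp1Δ*, against 99 and 112 in wild type. Its level was 17.2 RPKM (interval 13.7 to 21.3) and 26.3 RPKM (21.6 to 31.8) in *dbp1Δ* replicates 1 and 2, against 22.7 RPKM (18.4 to 27.6) and 29.4 RPKM (24.2 to 35.4) in wild-type replicates 1 and 2. The genotypes overlapped, and the log2 fold change was -0.27 (95% interval -0.86 to 0.32), the widest interval of the 9. Its partners, named after their values were seen, are given for comparison. *ATG12* was at 35.2 and 38.1 RPKM in *dbp1Δ*, against 39.2 and 46.2 RPKM in wild type, and *ATG16* at 17.6 and 25.1 RPKM in *dbp1Δ*, against 16.3 and 25.3 RPKM in wild type. The counting intervals of the ratio of *ATG16* to *ATG5* included equal levels in all 4 libraries, and those of the ratio of *ATG12* to *ATG5* did not (the lowest bound was 1.09).

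**Figure D2:**
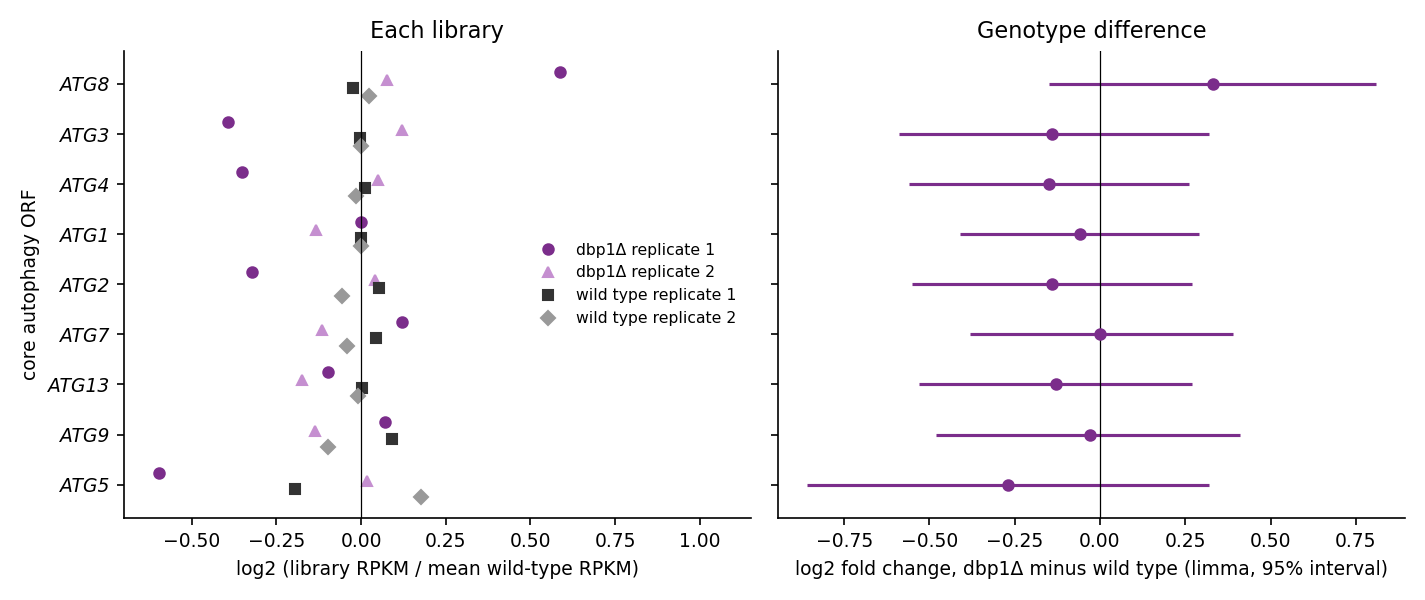
Left, log2 ratio of each library's RPKM to the wild-type mean for the 9 ORFs; right, the log2 fold change between genotypes from limma with its 95% interval. The purple circles of *dbp1Δ* replicate 1 lie apart for *ATG8*, *ATG3*, *ATG4* and *ATG2*. For *ATG5* the circle is the lowest, but its counting interval overlapped that of wild-type replicate 1. All 9 intervals on the right cross 0.

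Between the 2 *dbp1Δ* libraries, 6 of the 9 autophagy ORFs (*ATG2*, *ATG3*, *ATG4*, *ATG5*, *ATG7* and *ATG8*) had counting intervals that did not overlap, against 0 of 9 between the wild-type libraries. Among the 5278 tested ORFs with a length in the reference this held for 40.0% in the *dbp1Δ* pair and for 7.03% in the wild-type pair, and ORFs with more reads have narrower intervals. The median absolute log2 difference of the 9 ORFs was 0.36 in the *dbp1Δ* pair and 0.05 in the wild-type pair, where over all tested ORFs it was 0.31 and 0.12. The direction was not shared. *ATG8*, *ATG7*, *ATG9*, *ATG1* and *ATG13* were higher in *dbp1Δ* replicate 1 than in replicate 2, by 0.51, 0.23, 0.20, 0.13 and 0.07 on the log2 scale, whereas *ATG5*, *ATG3*, *ATG4* and *ATG2* had differences of -0.60, -0.51, -0.40 and -0.36.

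The ratios of *ATG8* to the enzymes acting on it were also compared within each library. Footprints of *ATG8* stood at 5.76 times the level of *ATG3* in *dbp1Δ* replicate 1 (interval 5.55 to 5.97) and at 2.83 times in *dbp1Δ* replicate 2 (2.73 to 2.94), against 2.88 times (2.77 to 2.99) and 2.97 times (2.85 to 3.09) in wild-type replicates 1 and 2. Relative to *ATG4*, *ATG8* was at 16.8 and 8.93 times in *dbp1Δ*, against 8.55 and 9.03 times in wild type. Relative to *ATG7*, *ATG8* was at 57.5 times (interval 53.8 to 61.6) and 47.5 times (43.9 to 51.5) in *dbp1Δ*, against 39.7 times (36.9 to 42.8) and 43.6 times (40.2 to 47.4) in wild type. *dbp1Δ* replicate 1 thus lay outside the counting intervals of the other 3 libraries for all 3 ratios. *dbp1Δ* replicate 2 overlapped both wild-type libraries for the ratios to *ATG3* and *ATG4*, but for the ratio to *ATG7* it overlapped wild-type replicate 2 and lay above wild-type replicate 1. *ATG3* and *ATG4* kept nearly the same proportion in all 4 libraries, at 2.93 and 3.15 in *dbp1Δ*, against 2.97 and 3.04 in wild type, with overlapping intervals. Since both values of a ratio come from one library, scaling between libraries cannot alter these numbers. *ATG8* made up 76.4% and 63.5% of the summed RPKM of the 9 ORFs in *dbp1Δ*, against 62.9% and 63.9% in wild type.

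**Figure D3:**
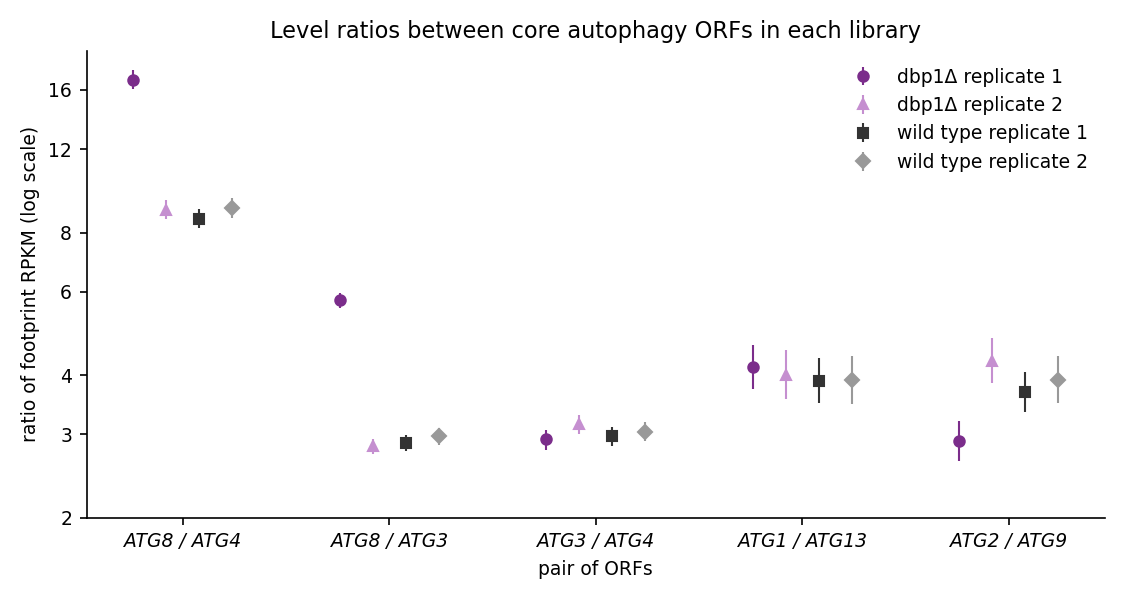
Ratio of footprint RPKM between pairs of core autophagy ORFs (log scale) in each of the 4 libraries, with exact 95% counting intervals. *ATG8* relative to *ATG4* and to *ATG3* is highest in *dbp1Δ* replicate 1, at 16.8 and 5.76, whereas *ATG3* relative to *ATG4* and *ATG1* relative to *ATG13* have overlapping intervals in all 4 libraries.

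The calls followed the same library. Without *dbp1Δ* replicate 2, so that *dbp1Δ* replicate 1 alone was set against wild type and assumed to vary as the wild-type libraries do, limma called 3 of the 9 ORFs, where 9.70% of all tested ORFs were called. *ATG8* was higher in *dbp1Δ* (log2 fold change 0.59, adjusted p = 0.00869 in limma), and *ATG3* (-0.39, adjusted p = 0.0235) and *ATG4* (-0.35, adjusted p = 0.0391) were lower. Without *dbp1Δ* replicate 1, limma called 0 of the 9, and the fold changes of *ATG2*, *ATG3*, *ATG4* and *ATG5* were then positive, between 0.03 and 0.12. Counted without a test, 1 of the 9 ORFs (*ATG8*) had both *dbp1Δ* values above both wild-type values, which held for 9.59% of all tested ORFs, and 1 (*ATG13*) had both below, which held for 15.3%.

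Meiotic marker genes also differed between the *dbp1Δ* libraries. All 10 early meiotic markers had higher levels in *dbp1Δ* replicate 1 than in *dbp1Δ* replicate 2, with a median log2 difference of 0.80 between these libraries. Between wild-type replicates 1 and 2 the median was 0.14. Their summed level was 5627 and 3828 RPKM in *dbp1Δ* replicates 1 and 2, against 4644 and 4351 RPKM in wild type. The sum was thus above both wild-type libraries in *dbp1Δ* replicate 1 and below both in *dbp1Δ* replicate 2. *HOP1*, named after its values were seen, was at 611 and 331 RPKM in *dbp1Δ*, against 414 and 380 RPKM in wild type. The middle meiotic markers were higher in *dbp1Δ* replicate 1 than in replicate 2 for 3 of 10 genes, with a median log2 difference of -0.22. Their summed level was 41221 and 29768 RPKM in *dbp1Δ*, against 28481 and 30597 RPKM in wild type. The higher sum in *dbp1Δ* replicate 1 came from *SPS4* and does not describe the other middle markers. *SPS4*, named after its values were seen, was at 24202 and 10956 RPKM in *dbp1Δ*, against 9923 and 11885 RPKM in wild type. No marker was listed at 0 in any library. The part of meiotic stage in the values of *ATG8*, *ATG3* and *ATG4* was not tested.

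The wider autophagy machinery was taken from a list of 29 further genes, which holds the other *ATG* genes and the subunits of phosphatidylinositol 3-kinase complex I. All 29 were tested, and 0 passed the adjusted threshold or an unadjusted p of 0.05, in limma on RPKM and in limma voom alike. The fold changes had a median of -0.01 on the log2 scale, 12 were positive and 17 negative. The genotypes did not overlap for 9 of the 29, with *dbp1Δ* lower for 8 (against 15.3% of all tested ORFs) and higher for 1 (against 9.59%). Highest in level were *ATG33*, a mitochondrial protein needed for mitophagy, at 2240 and 2609 RPKM in *dbp1Δ*, against 2440 and 2415 RPKM in wild type, and *ATG40*, a receptor for autophagy of the endoplasmic reticulum, at 1317 and 1537 RPKM in *dbp1Δ*, against 1490 and 1501 RPKM in wild type. Among the 9 core ORFs only *ATG8* had a mean level above that of *ATG33*.

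The lowest fold change of this list belonged to *ATG31*, a subunit of the scaffold that gathers the Atg proteins at the site of autophagosome formation. It was at 11.1 and 17.4 RPKM in *dbp1Δ*, against 21.0 and 19.2 RPKM in wild type (log2 fold change -0.51, standard error 0.26, adjusted p = 1.0 in limma). *ATG19*, the receptor that delivers a precursor aminopeptidase to the vacuole, had the highest, 0.19, at 32.3 and 29.5 RPKM in *dbp1Δ*, against 30.4 and 23.9 RPKM in wild type. Without *dbp1Δ* replicate 2, limma called 3 of these 29 ORFs, a share near the 9.70% of all tested ORFs called in that fit. They were *ATG31*, *ATG39* and *ATG42*, of which the last 2 were named after their values were seen. *ATG39*, a receptor for autophagy of the nuclear envelope, was at 594 and 915 RPKM in *dbp1Δ*, against 837 and 855 RPKM in wild type, and so was low in *dbp1Δ* replicate 1 only. *ATG42*, a vacuolar carboxypeptidase, was at 184 and 130 RPKM in *dbp1Δ*, against 135 and 138 RPKM in wild type, with *dbp1Δ* replicate 1 high.

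*VPS30*, also known as *ATG6*, encodes a subunit of phosphatidylinositol 3-kinase complex I and lies 2 genes from the deleted *DBP1* ORF on chromosome XVI in the S288C annotation, beyond YPL119C-A. *VPS30* (YPL120W) was at 21.6 and 19.3 RPKM in *dbp1Δ*, from 202 and 155 reads, against 24.3 and 22.7 RPKM in wild type, from 208 and 169 reads. The genotypes did not overlap, with *dbp1Δ* lower, but the log2 fold change of -0.20 (standard error 0.19, 95% interval -0.64 to 0.25, adjusted p = 1.0 in limma) did not pass. Its fold change was within the range of the 9 core ORFs.

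Downstream of the autophagosome, 11 vacuolar hydrolases and cargo proteins were examined, of which 0 passed the adjusted threshold or an unadjusted p of 0.05 in limma, as in limma voom. Their fold changes had a median of 0.09, and 10 of 11 were positive, where 2294 of all 5338 tested ORFs were. Their summed level was 7521 and 5700 RPKM in *dbp1Δ* replicates 1 and 2, against 5949 and 5698 RPKM in wild type. The excess of the sum thus lay in *dbp1Δ* replicate 1. *PEP4*, the proteinase that activates other vacuolar enzymes, was highest both in level and in fold change (0.35), at 2719 and 1568 RPKM in *dbp1Δ*, against 1584 and 1653 RPKM in wild type. As with *ATG8*, the excess lay in *dbp1Δ* replicate 1. *PRB1*, proteinase B, was at 1784 and 1368 RPKM in *dbp1Δ*, against 1569 and 1432 RPKM in wild type. *AMS1*, a mannosidase carried to the vacuole as cargo, had the lowest fold change, -0.07, at 234 and 226 RPKM in *dbp1Δ*, against 249 and 235 RPKM in wild type. All 11 were higher in *dbp1Δ* replicate 1 than in *dbp1Δ* replicate 2, with a median log2 difference of 0.22 where the median over all tested ORFs was 0.05. The wild-type pair leaned the same way, with a median of 0.13 for replicate 1 minus replicate 2, where all tested ORFs had 0.01.

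Upstream of Atg1, 18 genes of TORC1 and of starvation signalling were examined, and 0 passed either threshold in limma or in limma voom. The median fold change was 0.05, with 12 positive and 6 negative, where 2294 of all 5338 tested ORFs were positive. *VAC8*, which encodes a vacuolar membrane protein, was highest in level, at 264 and 277 RPKM in *dbp1Δ*, against 286 and 266 RPKM in wild type. *GTR2*, a GTPase that relays amino acid signals to TORC1, was at 71.0 and 100 RPKM in *dbp1Δ*, against 101 and 102 RPKM in wild type, and had the lowest fold change (-0.27). *GCN4*, a transcription factor whose translation rises on amino acid starvation through upstream ORFs, varied most. It was at 1.98 and 13.8 RPKM in *dbp1Δ*, against 6.01 and 1.65 RPKM in wild type, so that its log2 fold change of 0.67 (standard error 0.80) was smaller than its error. Its mean level of 5.86 RPKM was low, above that of only 11.9% of ORFs.

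**Figure D4:**
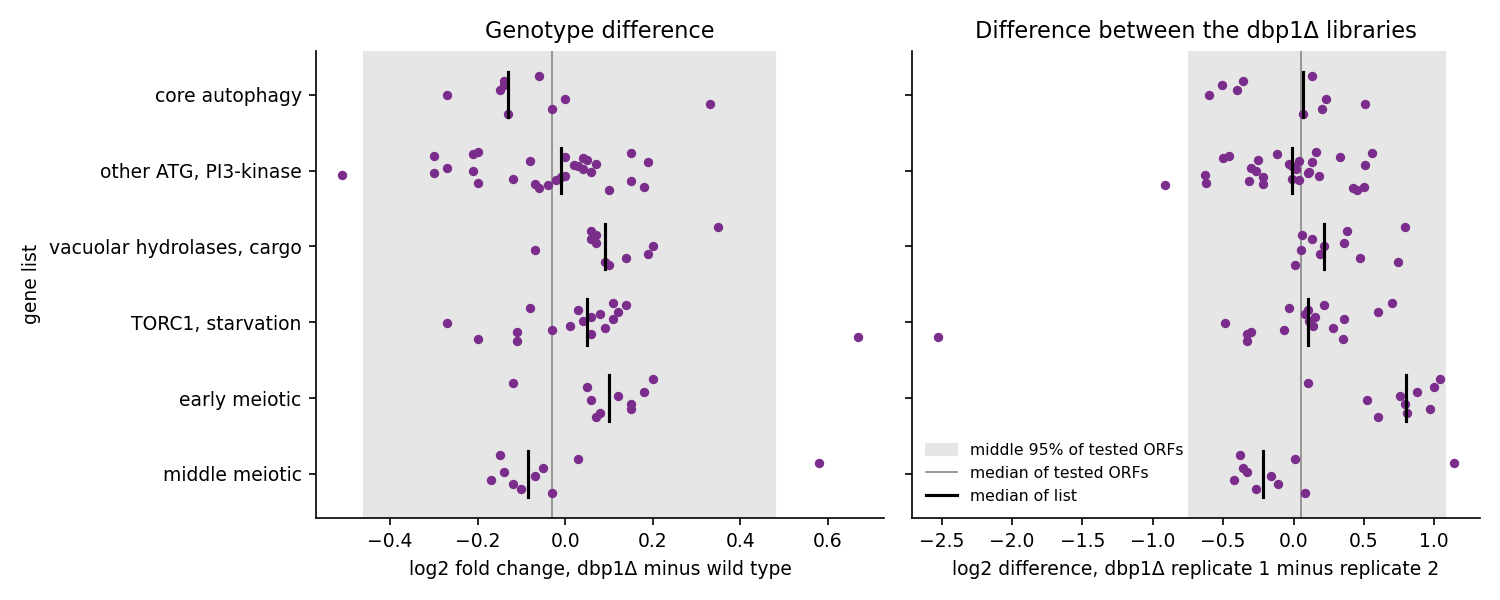
Log2 fold change between genotypes (left) and log2 difference between the 2 *dbp1Δ* libraries (right) for each gene of 6 lists, with the list's median as a black bar and the middle 95% of all 5338 tested ORFs shaded. The medians of the 4 autophagy lists lie between -0.13 and 0.09 on the left, and on the right the early meiotic markers have a median of 0.80.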

How the data were processed

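The authors treated cells with cycloheximide, prepared footprint libraries, mapped all reads to the SK1 genome and counted reads per ORF. The submitters' processing notes list Bowtie2, whose version is not given in the sources used here. They deposited footprint RPKM values (raw reads scaled to the mapped reads of the sample and to ORF length in kilobases), unscaled between libraries and without pooling of replicates. Symbols and lengths came from the S288C annotation R64 and were found for 5311 of the 5371 ORFs. Reads were recovered from the RPKM steps with each reference length less 60 nt, a divisor found from the values, and 89.3% of values were within 0.05 of a whole read. The step was tested on simulated reads. The main test was limma 3.58.1 (R 4.3.3; lmFit, eBayes with a trend) on log2(RPKM + 0.5) for the 5338 ORFs averaging 1 RPKM or more, with genotype as the only term. This scale understates changes of low ORFs. Exact intervals used Python 3.11.15 and scipy 1.17.1. The membership rule uses gene names only, but members, lists and tests were chosen with earlier results of these data known. Beside the core genes, the text names *DBP1*, called ORFs, *VPS30* and, from each of the 3 other pathway lists, the 2 highest in level and those with the highest and the lowest fold change. Other genes are marked as named after their values were seen.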

Additional observations from a re-analysis of the deposited data

How the results depend on the processing

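No setting that kept all 4 libraries called a core autophagy ORF, whether another pseudocount (0.1 or 1), no filter on low ORFs or one at 10 RPKM, centring on the median, quantile scaling, a constant prior variance in eBayes, the replicate block or limma voom on the recovered reads. Across all tested ORFs, 2 were called, against 25 with the replicate number as a block, 28 with the crossed pairing of the replicate block (added after the data were seen) and 1 with limma voom. The deviations of same-numbered libraries had a correlation of -0.135, so the numbers were not taken to pair the libraries, and the block called 0 of the 9 core ORFs. The median fold change of the 9 ORFs, -0.13, was -0.09 under quantile scaling. The cause of these differences was not tested.

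Leaving out each library in turn gave 1 to 518 called ORFs, 0 to 3 core autophagy ORFs, 0 to 3 of the other *ATG* and PI3-kinase ORFs, 0 to 1 of the hydrolases and cargo (*PEP4*) and 0 to 1 of the TORC1 and starvation genes (*GTR2*). Every upper value was reached without *dbp1Δ* replicate 2. The median of the 9 ORFs then ranged from -0.12 to 0.03. Log2 fold changes whose sign depended on the library left out ranged from -0.13 to 0.00 for *ATG1*, -0.32 to 0.04 for *ATG2*, -0.39 to 0.12 for *ATG3*, -0.35 to 0.05 for *ATG4*, -0.57 to 0.03 for *ATG5*, -0.11 to 0.12 for *ATG7* and -0.13 to 0.07 for *ATG9*. *ATG8* stayed positive and *ATG13* and *VPS30* negative in every setting. The ratio of the mean level of *ATG8* to that of *ATG3*, 3.46, was 3.07 with the whole ORF length as divisor and 2.89 without *dbp1Δ* replicate 1 (both added after the data were seen). Read depth bore most on *ATG5*, which had 82 to 112 reads a library.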
